A study of Mus musculus with 8 samples.

Results

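Fgf9, a second ligand of its family, 3 fibroblast growth factor (FGF) receptors and 5 genes that FGF signaling is known to switch on were followed in the hippocampus of mouse embryos at embryonic day (E) 15.5. These 10 genes, Fgf9, Fgf15, Fgfr1, Fgfr2, Fgfr3, Spry1, Spry2, Spry4, Etv4 and Etv5, were picked by name from the 16397 genes of a table of read counts, and all 10 passed the filter on low counts that left 13707 protein-coding genes for testing. Fgf9 was picked because its own level was higher in growth-restricted embryos than in controls, so its values are a description and carry no test. The question asked of the other 9 was whether their levels differ between the same groups.

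The 8 samples were hippocampi of C57Bl/6J embryos, 4 with intrauterine growth restriction (IUGR; T1-1, T1-3, T1-4 and T1-5) and 4 sham controls (S1-4, S1-6, S3-1 and S3-4). Every dam received a micro-osmotic pump at E12.5. Pumps of the IUGR dams held U-46619, a stable analog of thromboxane A2 that constricts vessels and makes the dam hypertensive, and pumps of the sham dams held vehicle. The number of dams and the sex of each embryo were not given with the samples, and whatever the prefix T1 marks and the IUGR group cannot be told apart. Total counts were 12919546 to 16672463 in IUGR and 11212632 to 15405748 in sham. The hippocampus markers Emx2, Lhx2, Zbtb20 and Prox1 were detected in every sample, with a summed level of 611 to 682 CPM (counts per 1000000) across the IUGR samples and 563 to 1163 across the shams. All 4 had a log2 fold change of IUGR over sham below 0, and 0 had an adjusted p of at most 0.05 by edgeR's quasi-likelihood test.

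FGFs are secreted proteins that bind receptor tyrosine kinases together with heparan sulfate, and the receptors pass the signal through adaptor proteins to the RAS, RAF, MEK and ERK kinases. ERK activity in turn raises transcription of Etv4 and Etv5, which encode ETS transcription factors, and of the Sprouty genes, whose products damp the same pathway. In the embryonic forebrain, FGF receptors are found in radial glia, the neural stem cells that line the ventricle, and FGFs are known for keeping such cells dividing.

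The promoter windows of Fgf9, the ligand the question starts from, of Fgfr2 and Fgfr3, the receptors whose levels separated the groups, and of Spry2, the target whose window held a motif bound by a repressor that ERK switches off, are printed here 5′ to 3′ on the strand of the gene, from 250 bases before to 50 bases after a RefSeq transcript start (build GRCm38.p6). Capitals mark a motif match.
Fgf9, chr14:58072436-58072735, plus strand: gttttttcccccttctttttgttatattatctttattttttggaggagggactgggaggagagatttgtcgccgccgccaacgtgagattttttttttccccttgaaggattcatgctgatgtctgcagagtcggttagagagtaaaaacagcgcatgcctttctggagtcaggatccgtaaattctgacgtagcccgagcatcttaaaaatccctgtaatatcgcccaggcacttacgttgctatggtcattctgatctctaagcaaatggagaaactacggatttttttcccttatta
Fgfr2, chr7:130266759-130267058, minus strand: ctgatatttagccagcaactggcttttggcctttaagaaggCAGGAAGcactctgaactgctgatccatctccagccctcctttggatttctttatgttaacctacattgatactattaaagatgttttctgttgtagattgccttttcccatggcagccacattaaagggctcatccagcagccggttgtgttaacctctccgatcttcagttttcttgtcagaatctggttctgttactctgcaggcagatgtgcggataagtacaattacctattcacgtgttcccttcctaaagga
Fgfr3, chr5:33721474-33721773, plus strand: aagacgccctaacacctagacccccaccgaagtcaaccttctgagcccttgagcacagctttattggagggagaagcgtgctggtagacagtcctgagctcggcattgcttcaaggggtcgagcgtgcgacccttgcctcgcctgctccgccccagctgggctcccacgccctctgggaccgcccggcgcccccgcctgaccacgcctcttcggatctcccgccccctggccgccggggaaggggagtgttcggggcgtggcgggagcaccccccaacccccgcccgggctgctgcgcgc
Spry2, chr14:105896770-105897069, minus strand: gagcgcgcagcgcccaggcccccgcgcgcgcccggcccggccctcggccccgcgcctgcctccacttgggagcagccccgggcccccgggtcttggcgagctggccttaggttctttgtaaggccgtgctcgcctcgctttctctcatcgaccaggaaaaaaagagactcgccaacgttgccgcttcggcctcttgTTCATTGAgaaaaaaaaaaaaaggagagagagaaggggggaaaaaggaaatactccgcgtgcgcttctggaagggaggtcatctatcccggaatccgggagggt

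The Fgf9 window lies inside the annotated gene (chromosome 14, 58070671 to 58112854), at the start of a shorter transcript. RefSeq windows were matched for 6 of the 10 genes, 8 windows in all. Those of Fgf15, Fgfr1, Spry4 and Etv4 were not matched. On both strands, the windows were searched for the octamers of the repressor Capicua (TGAATGAA, TGAATGGA, TCAATGAA and TCAATGGA) and for the ETS motifs CCGGAAG and CAGGAAG, and no match overlapped another. The Spry2 window held TTCATTGA, the reverse strand of TCAATGAA, with its first base at position -54 from the start, and 3.84% of 32851 mouse promoter windows of the same length held 1 of the octamers. Fgfr2 held CAGGAAG at position -209, against 13.3% of all windows, and CCGGAAG, found in 8.86% of all windows, was in none of the 8. The windows of Fgf9 and Fgfr2 were 42.7% and 43.7% G and C, whereas the printed ones of Fgfr3 and Spry2 were 69.7% and 62.7%. Fgfr3 had a further window at another start (chr5:33722056-33722355), not printed, which was 73% G and C and held no match.

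Fgf9 encodes a secreted ligand that neurons and glia release in the developing brain. Its level was 4.12 CPM for T1-1, 11.4 for T1-3, 4.80 for T1-4 and 6.69 for T1-5, and 1.48 for S1-4, 2.68 for S1-6, 1.96 for S3-1 and 1.57 for S3-4. These levels rest on 55 to 186 reads per IUGR sample and 16 to 31 per sham sample. All 4 IUGR samples were above all 4 sham samples, with T1-3 the highest of the 8. The mean was 6.76 ± 3.30 CPM in IUGR and 1.92 ± 0.549 CPM in sham (SD, n = 4 per group), which is 1.82 ± 0.37 (SE) on the log2 scale. With T1-3 left out the log2 fold change was 1.46. In bulk tissue, more cells of a type and more RNA per cell cannot be told apart. Markers of neurons were higher on the same samples, and their part in the Fgf9 difference was not tested. Of 14 neuron markers 13 had a log2 fold change above 0, against 44.5% of all tested genes, with a median of 0.46. Of these markers 0 had an adjusted p of at most 0.05 and none was at 0 in any sample. Their summed level was 5635 to 6225 CPM across the IUGR samples and 4353 to 5560 across the shams. The log2 fold change was also above 0 for 5 of 5 oligodendrocyte precursor, 7 of 7 microglia and 9 of 10 interneuron markers. So it was for 8 of 9 meningeal, 6 of 8 endothelial and 5 of 7 Cajal-Retzius markers. Lists with fewer were radial glia (5 of 12), intermediate progenitor (3 of 7) and, at 0, choroid plexus, cortical hem, diencephalon and hippocampus markers.

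**Figure D1:**
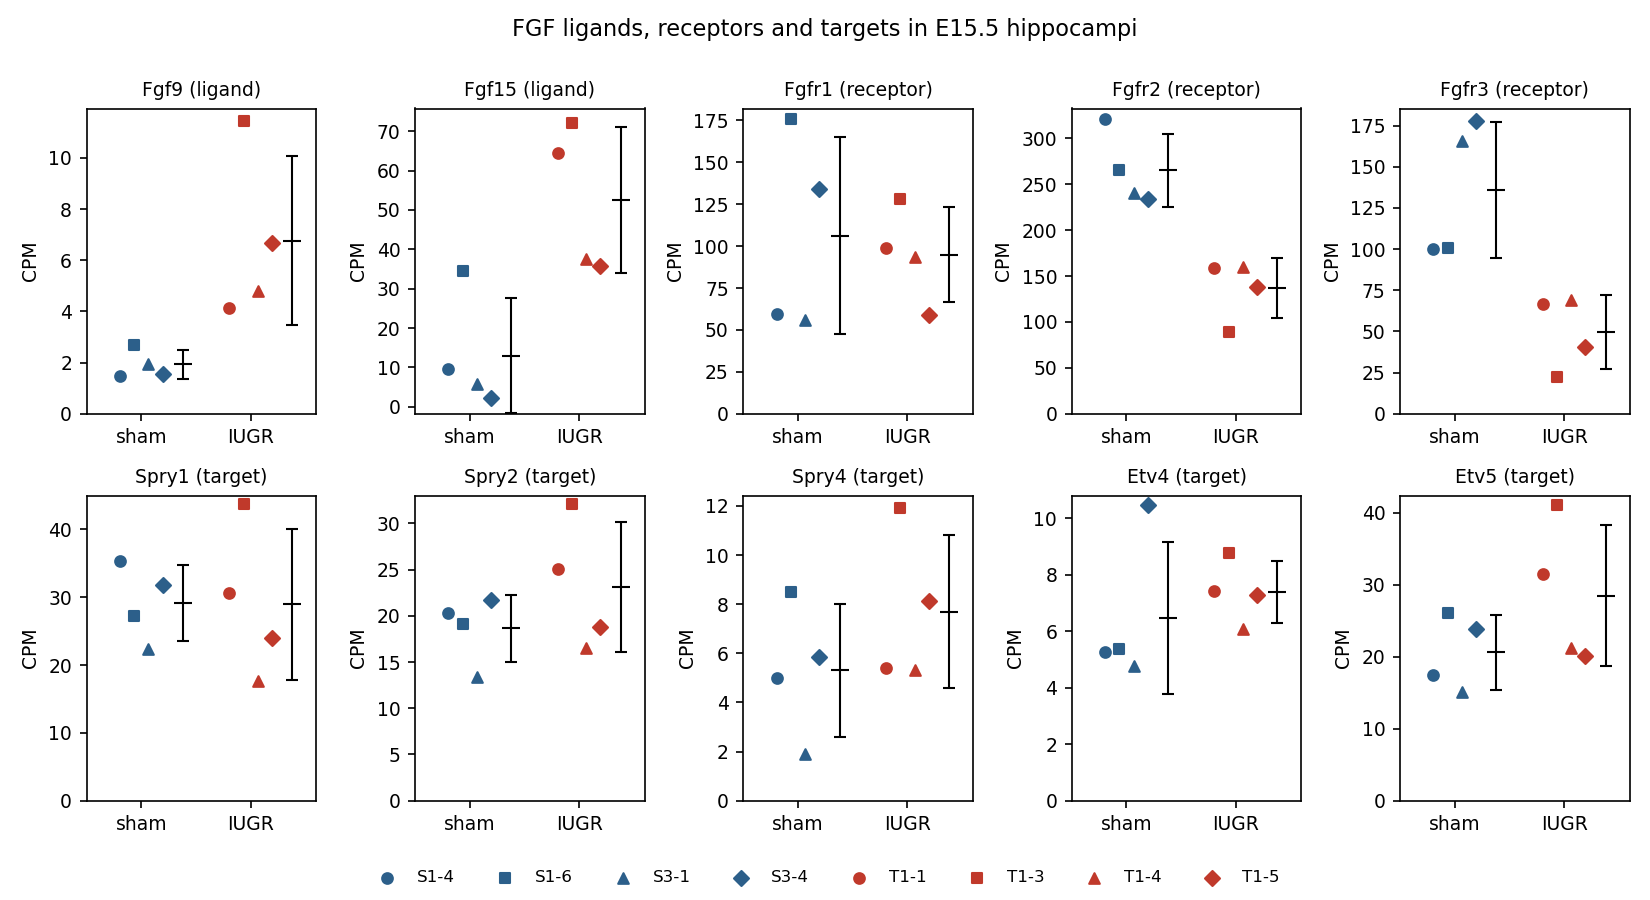
Level of each of the 10 genes (vertical axis, CPM on a linear scale) in the 4 sham (blue) and 4 IUGR (red) hippocampi, 1 symbol per sample, with the group mean and SD in black. Fgf9 and Fgf15 lie higher in all IUGR samples and Fgfr2 and Fgfr3 lower, while the 5 targets and Fgfr1 overlap.

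Fgf15, which encodes a secreted ligand made in the embryonic brain, also had no overlap between groups, by a narrow margin. It was at 64.5 CPM for T1-1, 72.1 for T1-3, 37.7 for T1-4 and 35.8 for T1-5, and at 9.52 for S1-4, 34.5 for S1-6, 5.80 for S3-1 and 2.28 for S3-4. The sham sample S1-6 stood just under the lowest IUGR sample, and the other 3 sham samples were far lower. On the log2 scale the difference was 2.02 ± 0.66 (SE; 95% interval 0.56 to 3.48), and edgeR's quasi-likelihood test gave an adjusted p of 0.211, which missed the threshold of 0.05. Without S1-6 the log2 fold change was 3.22 and the adjusted p of edgeR's test was 0.0235. With the S1 shams alone as controls the log2 fold change was 1.26 (edgeR adjusted p = 0.611), and with the S3 shams alone it was 3.74 (adjusted p = 0.0828). An antisense transcript, Gm26793, overlaps Fgf15 and was likewise higher in every IUGR sample, at 21 to 57 reads in IUGR and 2 to 18 in sham. The strand setting of the counting was not given, so the share of its reads in the Fgf15 count was not tested.

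A gene was called where edgeR's adjusted p was at most 0.05 and the log2 fold change at least 1 in either direction, which held for 1.46% of all tested genes, 0.102% higher and 1.36% lower in IUGR. Of the 9 genes other than Fgf9, 0 were called, 3 had an unadjusted p under 0.05 (11.1% of all tested genes) and 1, Fgfr2, had an adjusted p of at most 0.05 (1.55% of all tested genes, 1.43% lower and 0.124% higher in IUGR). Groups did not overlap in 3 of these 9, Fgf15 being higher and Fgfr2 and Fgfr3 lower, against 7.14% of all tested genes, 2.08% higher and 5.06% lower. By other tools, DESeq2's Wald test called 1 of the 9 (Fgfr3) and limma-voom called 2 (Fgf15 and Fgfr3), where these tools called 3.10% and 2.39% of all genes given an adjusted p.

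Fgfr2 (chromosome 7, 130162451 to 130266808) encodes a receptor whose splice forms bind different sets of FGFs. Its level was 159 CPM for T1-1, 89.6 for T1-3, 160 for T1-4 and 138 for T1-5, and 321 for S1-4, 265 for S1-6, 240 for S3-1 and 234 for S3-4. Every IUGR sample was below every sham sample, with T1-3 the lowest. The mean was 137 ± 32.9 CPM in IUGR and 265 ± 39.6 CPM in sham (SD, n = 4), a log2 fold change of -0.96 ± 0.19 (SE; 95% interval -1.38 to -0.53). Fgfr2 fell by edgeR's adjusted p of 0.0380 but not by the fold criterion. Leaving out 1 sample at a time, the adjusted p was 0.0375 to 0.143, and it stayed at or under 0.05 only without T1-3. It was 0.159 against the S1 shams alone (log2 fold change -1.10) and 0.272 against the S3 shams alone (-0.77).

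Fgfr3 (chromosome 5, 33721724 to 33737068), a receptor found in ventricular zone progenitors and astrocytes, was the gene of the 10 with the lowest ratio of IUGR to sham. It was at 66.8 CPM for T1-1, 22.4 for T1-3, 69.4 for T1-4 and 40.3 for T1-5, and at 99.7 for S1-4, 101 for S1-6, 166 for S3-1 and 178 for S3-4. Again no IUGR sample reached the lowest sham sample, and T1-3 was the lowest of the 8. The fitted log2 fold change was -1.45 ± 0.34 (SE; 95% interval -2.22 to -0.69), and the adjusted p of edgeR's test, 0.0710, missed the threshold. DESeq2 gave an adjusted p of 0.00132 and limma-voom one of 0.0443 for the same gene. Leaving out 1 sample at a time, edgeR's adjusted p was 0.0685 to 0.206. The shams split by prefix, with S1-4 and S1-6 well below S3-1 and S3-4, and the log2 fold change was -1.01 against the S1 shams alone (adjusted p = 0.552) and -1.76 against the S3 shams alone (adjusted p = 0.138).

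Fgfr1 (chromosome 8, 25518759 to 25575718), a receptor of forebrain progenitors, overlapped between groups. It was at 98.7 CPM for T1-1, 128 for T1-3, 93.6 for T1-4 and 58.7 for T1-5, and at 59.5 for S1-4, 176 for S1-6, 56.2 for S3-1 and 134 for S3-4. The sham samples split into a high pair, S1-6 and S3-4, and a low pair, S1-4 and S3-1, with 3 IUGR samples between them and T1-5 level with the low pair. The log2 fold change was -0.17 ± 0.37 (SE), with a 95% interval of -0.99 to 0.65. Its sign turned with the samples used, to 0.01 against the S3 shams alone and to 0.21 without S1-6.

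Per kilobase of exon, which allows levels of different genes to be compared, the 3 receptors summed to 30.2 ± 5.74 CPM per kilobase in IUGR (25.0 to 35.2) and 56.2 ± 4.63 in sham (52.0 to 61.7; SD, n = 4), with no overlap. This sum was made from the levels given above and was not tested again. Fgfr1 made up 32.6 ± 12.9% of the sum in IUGR (23.4 to 51.8%) and 18.7 ± 9.36% in sham (10.8 to 30.5%), with overlap.

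Markers of other structures at the edge of the hippocampus were lower in the IUGR group, as Fgfr2 was, and their part in its fall was not tested. Of 15 choroid plexus markers tested, 15 had a log2 fold change below 0 with a median of -3.10, 4 were called lower (1.36% of all tested genes) and the summed level was 47.5 to 367 CPM across the IUGR samples and 1038 to 1532 across the shams. Tmem72 was the only one of these markers at 0 in any sample. Of 11 markers of the cortical hem, the signaling center beside the hippocampus, 11 had a log2 fold change below 0, 7 were called lower, none was at 0, and the summed level was 108 to 255 CPM against 311 to 583 CPM. Radial glia markers overlapped, with 7 of 12 below 0, 0 called and a summed level of 3489 to 4106 CPM across the IUGR samples and 3583 to 4358 across the shams. Within the IUGR group, T1-1 and T1-4 had the lowest choroid plexus sums, 59.1 and 47.5 CPM, and the highest Fgfr2 and Fgfr3. T1-3, the lowest in Fgfr2 and Fgfr3, had the highest choroid plexus and cortical hem sums of that group, 367 and 255 CPM.

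**Figure D2:**
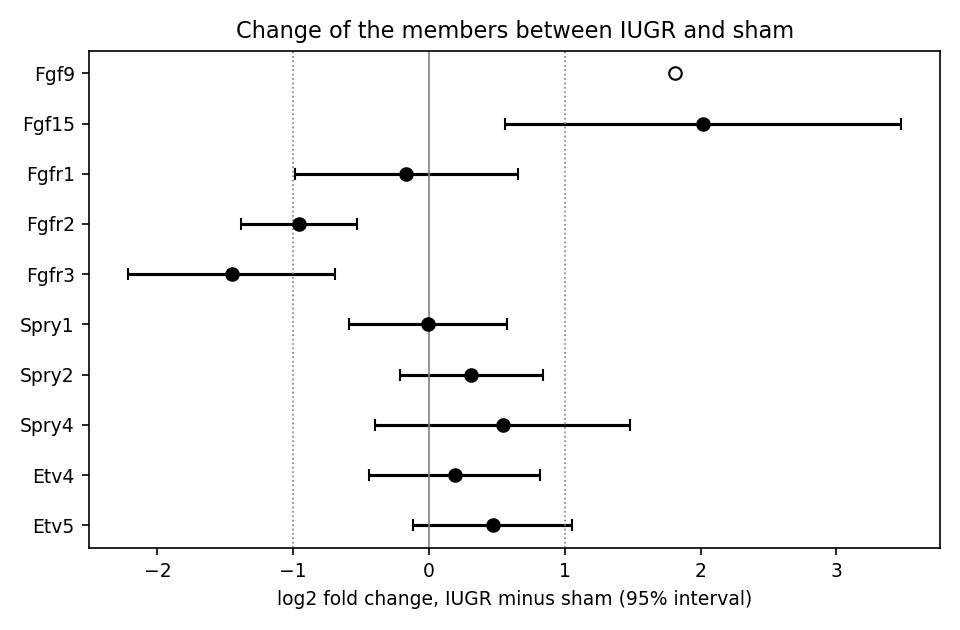
Log2 fold change of IUGR over sham for each gene (points) with its 95% interval from edgeR's fit (bars); dotted lines mark a change of 1 in either direction. Fgf9, drawn open and without an interval because its value chose it, and Fgf15 lie right of 0, Fgfr2 and Fgfr3 lie left of it, and the intervals of Fgfr1 and the 5 targets cross 0.

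The 5 targets did not separate the groups. Of them 4 had a log2 fold change above 0, against 44.5% of all tested genes, and their median was 0.31, against -0.02 over all tested genes. None was called and each overlapped between groups. The mean log2 CPM of the 5 was 3.97 ± 0.41 in IUGR and 3.67 ± 0.40 in sham (SD, n = 4), a difference smaller than either spread.

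Etv5 (chromosome 16, 22381313 to 22439570) had the smallest p of the targets. It was at 31.5 CPM for T1-1, 41.1 for T1-3, 21.2 for T1-4 and 20.2 for T1-5, and at 17.5 for S1-4, 26.1 for S1-6, 15.1 for S3-1 and 23.8 for S3-4. Here T1-1 and T1-3 were above every sham sample and T1-4 and T1-5 within the sham range. Its log2 fold change was 0.47 ± 0.26 (SE; 95% interval -0.12 to 1.06; edgeR adjusted p = 0.646). Its relative Etv4 (chromosome 11, 101769747 to 101785310) was at 6.07 to 8.79 CPM across the IUGR samples and 4.79 to 10.5 across the shams. The sham range came from S3-4, at 10.5 CPM, since the other 3 sham samples reached at most 5.37 CPM. The log2 fold change of Etv4 was 0.19 ± 0.28 (SE; 95% interval -0.44 to 0.82; edgeR adjusted p of 0.9995).

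Among the Sprouty genes, Spry4 had the largest change on the log2 scale and the lowest level. It was at 5.40 CPM for T1-1, 11.9 for T1-3, 5.31 for T1-4 and 8.14 for T1-5, and at 4.99 for S1-4, 8.48 for S1-6, 1.88 for S3-1 and 5.85 for S3-4. Only T1-3 was above the highest sham sample, and S3-1 and S1-4 were below the lowest IUGR sample. Its fitted log2 fold change was 0.54 ± 0.42 (SE; 95% interval -0.40 to 1.48; edgeR adjusted p = 0.890). Spry2 (chromosome 14, 105891947 to 105896819), the gene of the motif match above, was at 16.5 to 32.1 CPM across the IUGR samples and 13.4 to 21.7 across the shams, with a log2 fold change of 0.31 ± 0.24 (SE; 95% interval -0.21 to 0.84; edgeR adjusted p = 0.868). Spry1 (chromosome 3, 37639947 to 37644599) was at 17.6 to 43.7 CPM across the IUGR samples and 22.4 to 35.3 across the shams, with a log2 fold change of -0.01 ± 0.26 (SE; 95% interval -0.59 to 0.58) whose sign changed with the scaling. With 4 samples per group the intervals of Spry1, Spry2 and Etv4 leave out a rise of 1 on the log2 scale. Those of Spry4 and Etv5 do not. All of these intervals measure only the spread between these samples, which are not stated to come from separate litters. The Etv4 interval includes S3-4, without which its log2 fold change was 0.53.

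A single IUGR sample, T1-3, held the highest value of 6 of the 10 genes, namely Fgf9, Fgf15 and 4 of the 5 targets, and the lowest value of Fgfr2 and Fgfr3. T1-3 was the highest sample in 17.2% of all tested genes. The sham sample S3-1 was the lowest in 5 of the 10 genes, 4 of them targets, and in 15.6% of all tested genes. With T1-3 left out, the median log2 fold change of the 5 targets was 0.14. T1-3 also stood apart in meningeal markers, such as the collagen gene Col3a1, which reached 1310 CPM there against 22.5 to 309.9 CPM in the other IUGR samples. Their summed level was 2860 CPM for T1-3, against 78.5 to 818 CPM in the other 7 samples, 8 of the 9 markers had a log2 fold change above 0, 0 were called and none was at 0. T1-3 also had the highest summed level of microglia markers (138 CPM, against 54.7 to 79.2 CPM in the other 7 samples), oligodendrocyte precursor markers (220.4, against 72.9 to 133), Cajal-Retzius markers (1272, against 318 to 936) and endothelial markers (357, against 199.6 to 300.3), none of them at 0 in any sample. The part of these 5 lists in the values of T1-3 was not tested.

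**Figure D3:**
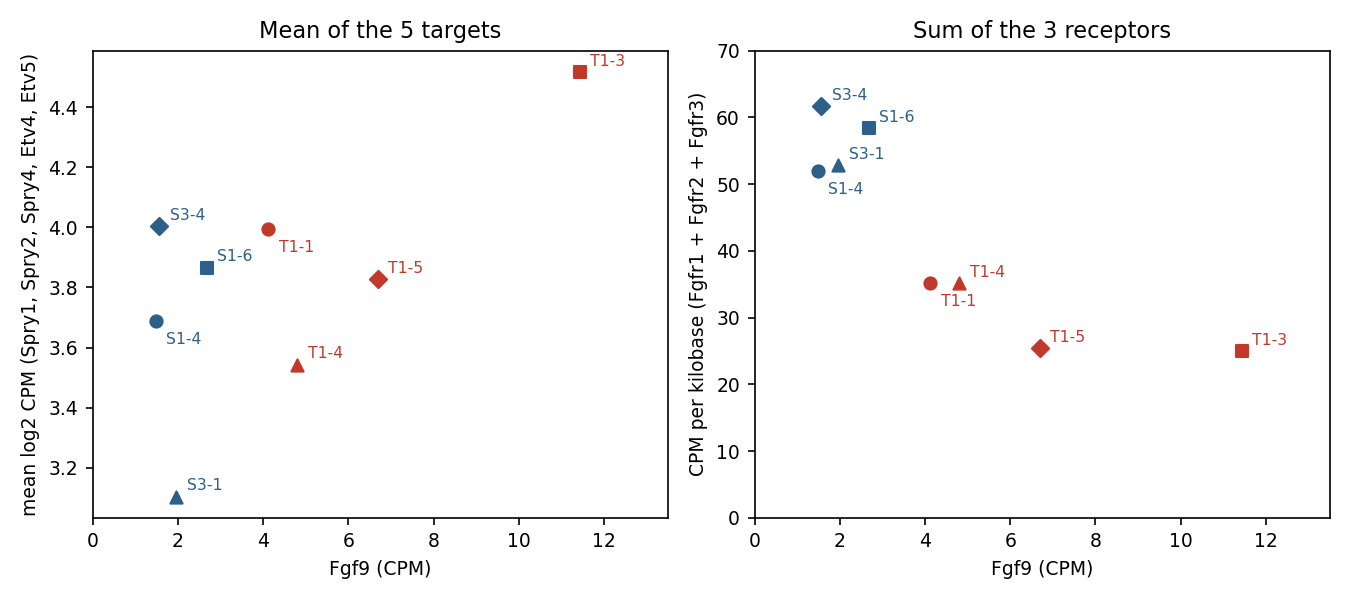
Fgf9 level (horizontal axis, CPM) against the mean log2 CPM of the 5 targets (left) and the summed level of the 3 receptors per kilobase (right), 1 point per sample, sham in blue and IUGR in red. The target mean of T1-3 is the highest and that of S3-1 the lowest, with the other 6 samples of both groups intermixed, whereas the receptor sum separates the groups.

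Across the 8 samples, Fgf9 fell into 2 separate groups of 4, and its relation to the targets within those groups was not tested. As a description over 8 samples that share the group difference, Pearson's r of log2 CPM with Fgf9 was 0.64 for Etv5, 0.62 for Spry4, 0.50 for Spry2, 0.34 for Etv4, 0.14 for Fgfr1 and 0.10 for Spry1. It was 0.82 for Fgf15, -0.94 for Fgfr3 and -0.95 for Fgfr2, which ranked 11893 and 11899 of 11906 genes, close to the opposite end. By rank over the same samples, Spearman's rho was 0.50 for Etv5, 0.60 for Spry4, 0.14 for Spry2 and 0.38 for Etv4. For Fgfr1 and Spry1 it was 0.02 and -0.12, and for Fgf15, Fgfr3 and Fgfr2 it was 0.83, -0.83 and -0.88. The 5 genes most like Fgf9 were Eef1a2, an elongation factor of translation (r = 0.992), Kitl, the ligand of the receptor Kit (0.989), Gnaz, a G protein subunit (0.981), Celf6, an RNA-binding protein (0.978), and Grm5, a metabotropic glutamate receptor (0.977). Kitl was at 127 to 217 CPM across the IUGR samples and 60.2 to 81.2 across the shams, and Grm5 at 52.5 to 114 CPM across the IUGR samples and 19.0 to 43.5 across the shams.

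Of 94 other genes of the FGF pathway, 81 were tested, 0 were called by edgeR and 13 had an unadjusted p under 0.05, which held for 11.1% of all tested genes. DESeq2 called 2, Sulf1 and Ndst4, and limma-voom called 2, Sulf1 and Sdc4, against 3.10% and 2.39% of all genes by the same tools. Groups did not overlap in 4.94% of the 81, a share below the 7.14% of all tested genes. The 4 genes were Frs3 and Ndst4, higher in IUGR, and Sdc4 and Sulf1, lower.

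Among 16 other feedback and target genes of FGF and ERK, 13 had a log2 fold change above 0, with a median of 0.41, and 0 were called. At a mean count of at least 50, the 3 with the largest changes were Etv1, a relative of Etv4 and Etv5, at 0.87 (adjusted p = 0.355), Il17rd, a membrane inhibitor of FGF signaling, at 0.81 (adjusted p = 0.370), and the transcription factor gene Myc at 0.70 (adjusted p = 0.613), all by edgeR. Il17rd was at 43.8 to 106 CPM across the IUGR samples and 23.1 to 51.1 across the shams, with overlap. Dusp6, a phosphatase that switches ERK off, was singled out after its values were seen, at 36.6 to 81.9 CPM across the IUGR samples and 31.8 to 39.7 across the shams, with 3 of the 4 IUGR samples above every sham sample (log2 fold change 0.67; edgeR adjusted p = 0.213). T1-3 was the highest sample in 10 of these 16 genes and S3-1 the lowest in 8, so that the same samples marked the ends of this list and of the 5 targets.

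Of 20 other genes of the FGF family, 10 were tested and 0 were called. Of the 10, 8 had a log2 fold change above 0, and the median was 0.50. This count and median include Fgf11, Fgf12, Fgf13 and Fgf14, intracellular homologs that are not secreted ligands. Their log2 fold changes were -0.20, 0.93, 0.10 and 0.58, in that order. The secreted ligands Fgf17 and Fgf3 had log2 fold changes of 1.33 (adjusted p = 0.466) and 1.13 (adjusted p = 0.552). Fgf17 was at 241 and 286 reads for T1-1 and T1-3 and 31 to 68 reads in the other 6 samples. Fgf12, an intracellular FGF homolog that binds sodium channels, was at 10.1 to 21.4 CPM across the IUGR samples and 5.82 to 10.3 across the shams (log2 fold change 0.93; edgeR adjusted p = 0.197).

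Of 6 other receptors and coreceptors 5 had a log2 fold change below 0, with a median of -0.47 and 0 called. The lowest was the coreceptor gene Kl at -1.44 (edgeR adjusted p = 0.369), with 1 to 46 reads per sample. Kl is also among the choroid plexus markers above. Flrt1, Flrt2 and Flrt3, membrane proteins that bind FGF receptors, had log2 fold changes of -0.63, -0.32 and -0.63. Flrt3 was at 64.2 to 123 CPM in IUGR and at least 118 CPM in every sham sample (edgeR adjusted p = 0.221).

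Of the 23 genes that carry the signal from receptor to ERK, 14 had a log2 fold change above 0, the median was 0.01, and 0 were called. Frs3, an adaptor that docks on FGF receptors, was at 14.1 to 19.6 CPM in IUGR and had no overlap with sham, with a log2 fold change of 0.68 ± 0.19 (SE; edgeR adjusted p = 0.116). The adaptor genes Shc2 and Shc3 followed at -0.44 and 0.44.

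Of 26 genes of heparan sulfate, the sugar chain that holds FGF on its receptor, 17 had a log2 fold change below 0, the median was -0.10 and 0 were called. Sulf1, an enzyme that takes sulfate off heparan sulfate outside the cell, was at 15.2 CPM for T1-1, 72.2 for T1-3, 25.6 for T1-4 and 175 for T1-5, and at 413 to 600 CPM in sham. It was lower in every IUGR sample, by -2.79 ± 0.63 on the log2 scale (SE; edgeR adjusted p = 0.0606). T1-1 and T1-4, the lowest in Sulf1, were also the lowest in the summed markers of choroid plexus (59.1 and 47.5 CPM) and cortical hem (132 and 108 CPM), whose part in the Sulf1 values was not tested. Sdc4, a membrane heparan sulfate proteoglycan, was at 6.66 to 13.6 CPM in IUGR and at least 18.2 CPM in sham, a log2 fold change of -0.9996 (edgeR adjusted p = 0.0571). Ndst4, an enzyme that adds sulfate to the chain, was higher at 3.54 to 12.2 CPM, against a mean of 2.19 CPM in sham (log2 fold change 1.59; edgeR adjusted p = 0.107). The glypican gene Gpc3 was at 9.69 to 97.2 CPM across the IUGR samples and 82.1 to 127 across the shams (log2 fold change -1.42; edgeR adjusted p = 0.385).

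**Figure D4:**
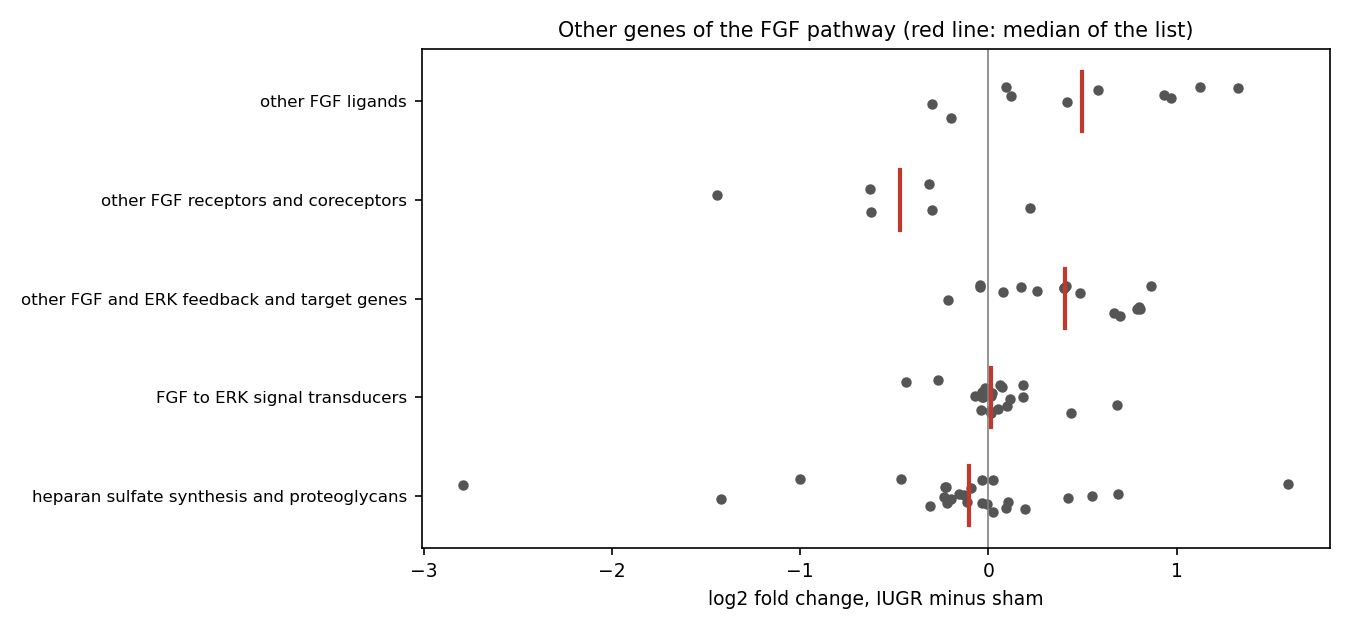
Log2 fold change of IUGR over sham (horizontal axis) for every tested gene of the 5 other lists of the FGF pathway, 1 point per gene, with the list's median in red. Medians are 0.50 for other ligands, -0.47 for coreceptors, 0.41 for feedback and target genes, 0.01 for signal transducers and -0.10 for heparan sulfate genes. The list of other ligands includes the intracellular homologs Fgf11, Fgf12, Fgf13 and Fgf14.

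By level per kilobase in sham, the order was Fgfr2 (26.5 CPM per kilobase), Fgfr3 (19.0), Fgfr1 (10.8), Spry1 (10.04), Spry2 (8.93), Etv5 (5.02), Fgf15 (4.26), Etv4 (2.09), Spry4 (1.11) and Fgf9 (0.414). Only Spry2 and Etv5 were neighbors whose samples did not overlap. In IUGR the order was Fgf15 (17.2 CPM per kilobase), Fgfr2 (13.6), Spry2 (11.1), Spry1 (9.97), Fgfr1 (9.59), Etv5 (6.950), Fgfr3 (6.945), Etv4 (2.38), Spry4 (1.62) and Fgf9 (1.45), and only Fgfr3 and Etv4 were neighbors without overlap. Fgf9 was thus last in both groups, and Fgf15 stood first in IUGR and seventh in sham.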

How the data were processed

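Total RNA of the 8 hippocampi was depleted of ribosomal RNA, made into stranded libraries and sequenced as single reads. The authors deposited raw read counts per gene, 1 column per sample. The submitters' processing notes name Novoalign 2.8 and the build mm10. The counting program, its annotation and its strand setting are not given in the sources used here. Identifiers were matched to GENCODE M21 (16124 of 16397).

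Testing covered the 13707 protein-coding genes whose count averaged 10 or more but below 50000 over the samples, which leaves out Ttr. The quasi-likelihood test of edgeR 4.0.16 (R 4.3.3) was run after TMM scaling, and p-values were adjusted by Benjamini and Hochberg's method over every tested gene. Calls needed both an adjusted p no higher than 0.05 and a shift of 1 or more on the log2 scale, up or down. CPM use TMM-adjusted library sizes, and log2 CPM a prior count of 2. Levels per kilobase use the union of exons near the RefSeq gene; a distant Fgfr2 exon was left out. Scripts were tested on simulated data. Alternatives included DESeq2 1.42.0, limma 3.58.1 (voom), other scalings and filters, and leaving out samples.

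The genes and lists were chosen with earlier results of these data known, and the hippocampus markers after the files were seen. Named genes were the 10 genes, of each pathway list those called, those without overlap and the 3 with the largest absolute change at a mean count of at least 50, and the 5 genes most like Fgf9. Dusp6, Kl, Fgf11, Fgf13 and Fgf14 were named outside this rule. Markers of further cell types were also measured: 0 were called among 7 intermediate progenitor, 10 interneuron, 5 oligodendrocyte precursor, 7 Cajal-Retzius, 9 meningeal, 8 endothelial, 7 microglia and 4 diencephalon markers. Nothing states that the samples came from separate litters, so p-values measure the spread between these samples. One marker is not reported here.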

Additional observations from a re-analysis of the deposited data

Results flagged for a closer look

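Etv4 in the sham sample S3-4 was flagged because it stood far from the other sham samples, at 10.5 CPM against 4.79 to 5.37 CPM in the other 3. Without S3-4 the log2 fold change of Etv4 was 0.53 (edgeR adjusted p = 0.607), against 0.19 with it. With 20 groups examined, chance alone gives about 1 such sample.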

How the results depend on the processing

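Fgf9 had a log2 fold change of 1.46 to 2.24 over the alternatives, and the median of the 5 targets stayed at 0.14 to 0.53. Since Fgf9 was picked for its higher level in these same samples, its range is a description and no test. The 200 genes called became 425 with DESeq2, 328 with limma-voom, 0 with the S1 shams alone (1053 at an unadjusted p under 0.05), 2 with the S3 shams alone and 41 to 298 when 1 sample was left out; the last 3 use fewer samples. Of the 9 genes other than Fgf9, 0 were called in the reported comparison, 1 with DESeq2, 2 with limma-voom, 2 without T1-1 and T1-4, 1 by adjusted p alone and 0 to 1 when 1 sample was left out (Fgf15, without S1-6). T1-1 and T1-4 held the highest Fgfr2 and Fgfr3 of the IUGR samples, so a larger fall of both without them follows from leaving them out. Of the 81 pathway genes 0 were called, against 2 with DESeq2, 2 with limma-voom, 3 without T1-1 and T1-4 (Sulf1, Fgf12 and Ndst4) and 0 to 2 when 1 sample was left out, namely Sulf1 (without T1-5) or Sdc4 and Gpc3 (without T1-3). The cause of these shifts was not tested. The log2 fold change of Fgfr1 turned to 0.013 with the S3 shams alone and was -0.38 to 0.21 when 1 sample was left out. That of Spry1 turned to 0.014 with DESeq2's size factors or its test, 0.019 with upper-quartile scaling, 0.026 without a filter, 0.034 with filterByExpr, 0.12 with the S3 shams alone and 0.22 without T1-1 and T1-4, and was -0.25 to 0.17 when 1 sample was left out. That of Etv4 turned to -0.030 with the S3 shams alone. The lowest count of Fgf9 was 16 reads, in S1-4. No paired analysis was possible because the sample names give no number that links 1 IUGR sample to 1 sham sample.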
